A study of Homo sapiens with 21 samples.

Results

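NR0B1, FCGRT, TNNT1, SLC15A2 and APELA were followed across a knockdown/rescue (KD/rescue) series. The cells were A673, a long-used line from Ewing sarcoma that carries the EWS/FLI fusion. These 5 genes, of 57820 in the count table and 30549 with enough counts to be tested, were chosen by their measured values: each was higher with the DAF construct than with DAF-mut9, while the mut9 and WT-EF constructs did not differ clearly. All 5 passed the filter on low counts. Transcripts were counted by RNA-seq in 21 libraries, 7 groups of 3, with each group present once in 3 replicate KD/rescue experiments (sets 1, 2 and 3). Library totals ran from 32.9 to 46.2 M counts.

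Every group carried an shRNA, delivered by retrovirus on day 1, and either an empty vector or a cDNA, delivered on day 5, and was kept until day 16 under 2 µg/ml puromycin and 400 µg/ml hygromycin. Control cells had an shRNA to luciferase and the empty vector (iLuc) and so kept their own fusion, here called endo-EF. The other 6 groups all had an shRNA to EWS/FLI: with the empty vector (iEF, the common baseline), with full-length EWS/FLI (WT-EF), with a form lacking the EWS domain (Δ22), with a full-length form whose N-terminal EWS repeat tyrosines were alanine while the later SYGQ2 stretch was intact (DAF), with an internally deleted EWS domain that keeps its first part, SYGQ1 included, and its end (mut9), or with that short domain after its repeat tyrosines were also made alanine (DAF-mut9). The 3 DAF-mut9 columns of the table carry the name mut9d; they were taken to be DAF-mut9, and all values given for that construct rest on it. The groups are selected populations of a single cell line.

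EWS/FLI joins the low-complexity EWS domain, rich in repeats built around a tyrosine, to the DNA-binding part of the ETS factor FLI1. The fusion binds single GGAA-containing sites and also GGAA microsatellites, stretches of tandem GGAA repeats, from which it can switch on genes that are silent in most cells. NR0B1 encodes DAX1, an orphan nuclear receptor that represses other nuclear receptors and is a well-known microsatellite target of the fusion. FCGRT encodes the heavy chain of the neonatal Fc receptor, which recycles IgG and albumin. TNNT1 encodes the troponin T of slow skeletal muscle, SLC15A2 the proton-coupled peptide transporter PEPT2, and APELA a short secreted peptide that is a ligand of the apelin receptor.

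In the GRCh37 reference, 3 of the 5 genes had a run of at least 10 uninterrupted GGAA units near the annotated start. The window ran from 5000 bases upstream to 1000 bases downstream. The start was that of the transcript marked as canonical in the annotation. For FCGRT it is at 50015918, whereas the gene as annotated begins at 50010073. Counted from that outer start, the FCGRT run would lie downstream, outside the window. The 3 stretches are shown because a long GGAA repeat is the element through which EWS/FLI is best known to act. The rule that chose the genes used levels and not sequence. The study had, however, already named NR0B1 and FCGRT as genes activated from nearby microsatellites and rescued by DAF. That 3 of the 5 have a long run is therefore not shown to be independent of the choice. The stretches are written on the strand that reads GGAA, with every GGAA unit in capitals and 20 bases on each side of the repeat in lower case.
NR0B1 (chrX:30328855-30328996, minus strand, outside annotated genes): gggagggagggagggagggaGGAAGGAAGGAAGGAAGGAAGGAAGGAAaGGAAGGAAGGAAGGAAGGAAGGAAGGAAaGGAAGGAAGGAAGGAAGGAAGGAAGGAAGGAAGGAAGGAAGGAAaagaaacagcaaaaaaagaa
FCGRT (chr19:50014739-50014895, plus strand, within the FCGRT gene but in no annotated exon): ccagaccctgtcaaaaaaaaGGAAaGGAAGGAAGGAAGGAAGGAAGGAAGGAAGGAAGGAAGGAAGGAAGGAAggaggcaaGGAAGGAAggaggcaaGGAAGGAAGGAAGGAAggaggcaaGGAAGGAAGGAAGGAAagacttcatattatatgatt
APELA (chr4:165794467-165794573, plus strand, outside annotated genes): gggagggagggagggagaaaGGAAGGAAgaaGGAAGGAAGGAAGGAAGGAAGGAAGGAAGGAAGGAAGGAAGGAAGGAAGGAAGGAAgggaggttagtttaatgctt

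The NR0B1 stretch held 25 GGAA units in 142 bases, with a longest run of 11 units at -1390 bases from the start (negative distances lie upstream). The FCGRT stretch held 23 units in 157 bases, with a longest run of 12 units at -1130, and the APELA stretch 16 units in 107 bases, with a longest run of 14 units at -3804. APELA had another run of 12 units farther out, at -24564. TNNT1 and SLC15A2 had no run of 4 or more units in the same window. Within 50000 bases on each side TNNT1 had 1 run of 5 units, at 13818 inside the gene, and SLC15A2 had none. These are lengths in the reference sequence; such repeats vary in length, and their length in A673 cells was not measured.

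**Figure D1:**
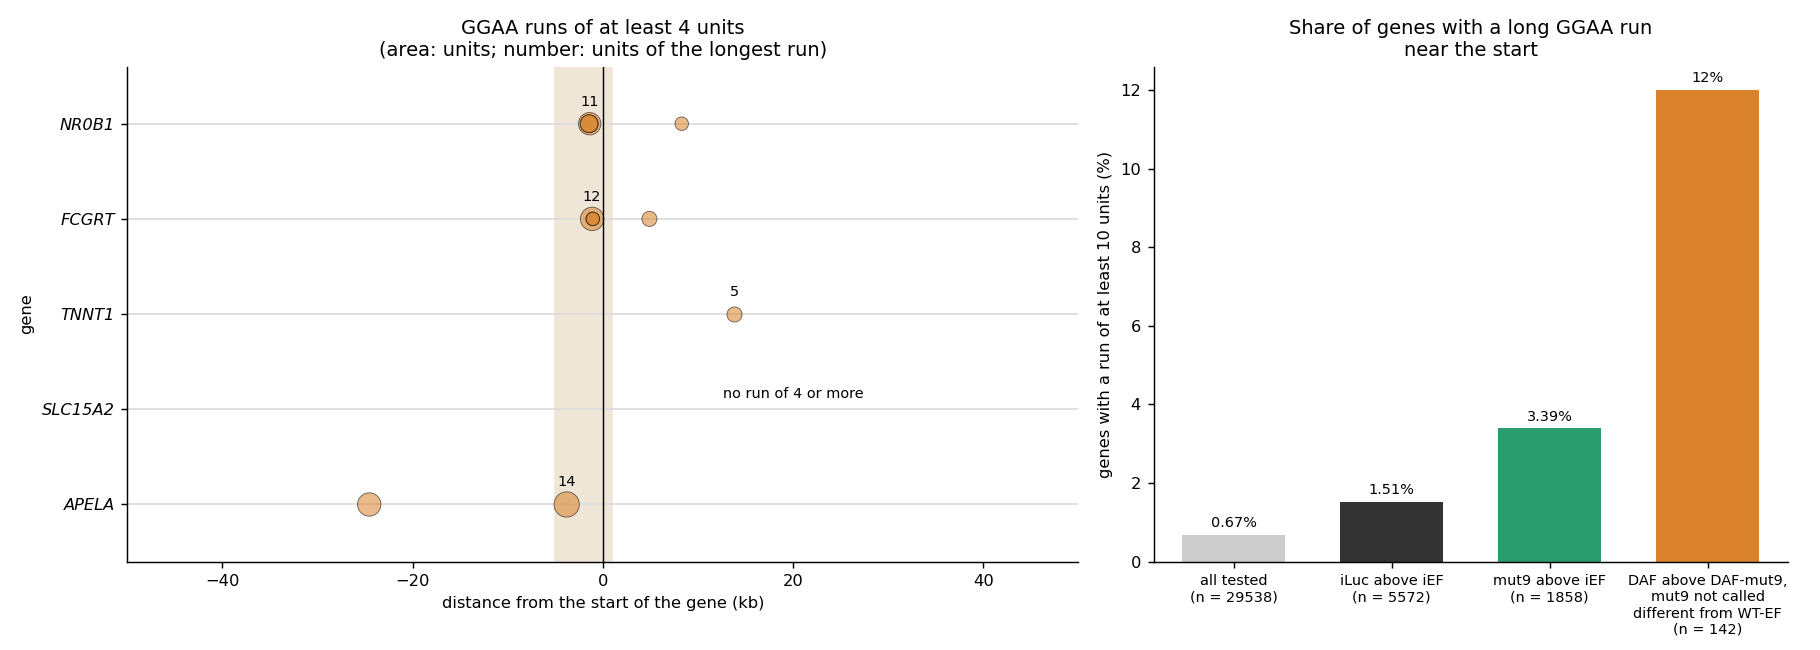
Left, position of every GGAA run of at least 4 units within 50 kb of the start of each gene, with the area of a circle giving the number of units and the shaded band the window of 5000 bases upstream to 1000 downstream; NR0B1, FCGRT and APELA have runs of 11, 12 and 14 units in the band and TNNT1 and SLC15A2 have none. Right, share of genes in 4 gene sets with a run of at least 10 units in that window, from 0.67% of all tested genes to 12% of the genes that were higher with DAF than with DAF-mut9 while mut9 and WT-EF were not called different.

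FLI1, whose counts take in the fusion, the cDNAs and any FLI1 transcript, checked the knockdown. Its level in CPM (counts scaled to a library of 1 M, with TMM-adjusted sizes) was 70.3 ± 16.2 in iLuc and 20.6 ± 0.553 in iEF, a log2 difference of 1.75 ± 0.14 (SE, n = 3 per group, edgeR quasi-likelihood test, adjusted p = 1.33e-09). With DAF it was 37 ± 2.43 CPM (SD, n = 3) and with DAF-mut9 36.3 ± 1.49 CPM, a log2 difference of 0.03 ± 0.13 (edgeR adjusted p = 0.99). FLI1 was 24.5 ± 2.39 CPM with WT-EF, 30.7 ± 2.52 CPM with mut9 and 49.5 ± 11 CPM with Δ22. Over iEF it was not called with WT-EF (log2 difference 0.24 ± 0.13, edgeR adjusted p = 0.196). It was called higher with mut9 (0.57 ± 0.13, edgeR adjusted p = 0.00494), DAF (0.84 ± 0.13, adjusted p = 0.000365), DAF-mut9 (0.81 ± 0.13, adjusted p = 0.00164) and Δ22 (1.25 ± 0.13, adjusted p = 4.85e-05). The part of the FLI1 level in the values of the 5 genes was not tested. The cDNAs hold only coding sequence, FLI1 shares 329 exon bases with antisense genes, and protein was not measured in these files. Of 6 Ewing sarcoma markers 5 were present (STEAP1, PRKCB, LIPI, CCND1 and, at 0.747 to 11 CPM, NKX2-2), and CD99, which lies in the region shared by the X and Y chromosomes, was counted at no more than 0.219 CPM in any library. The 5 summed markers of leukocytes and epithelium came to 0.477 to 1.23 counts per 1 M of the library total, here without the TMM adjustment.

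**Figure D2:**
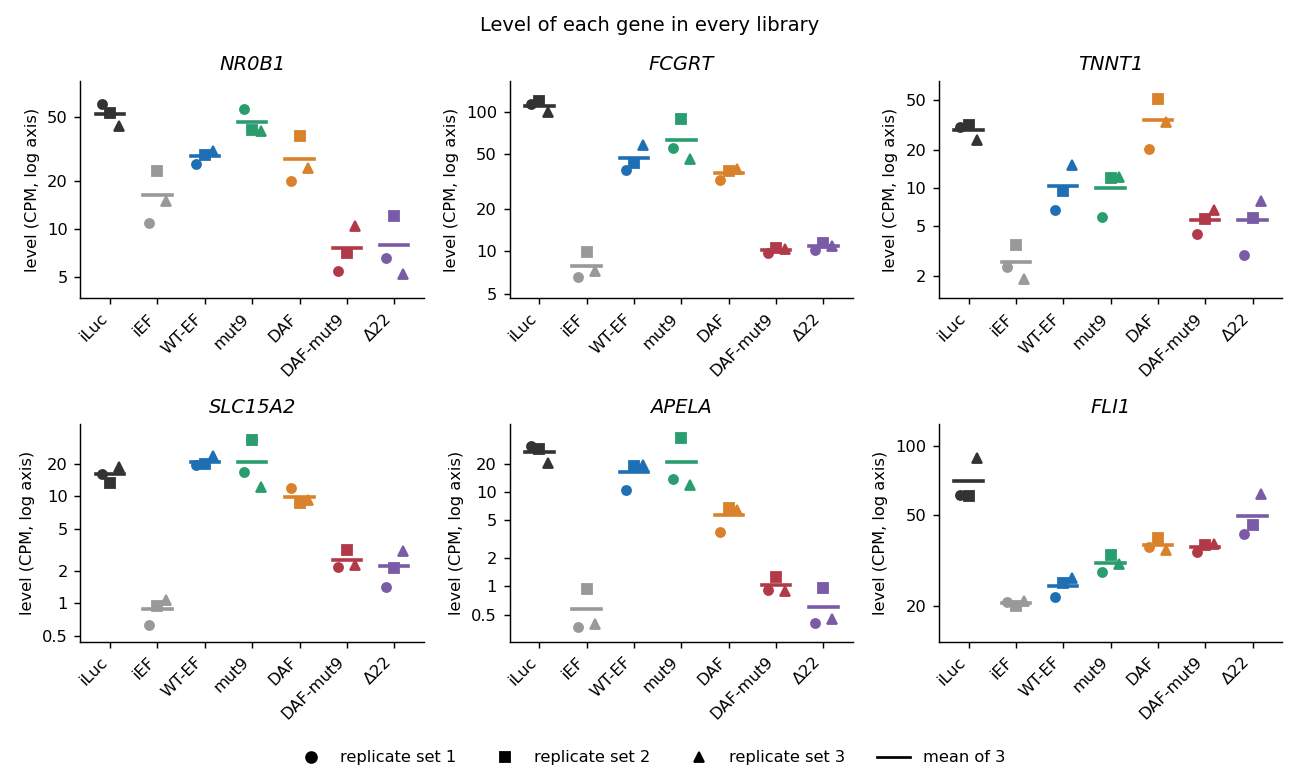
Level of the 5 genes and of FLI1 in each of the 21 libraries, in CPM on a log axis, with the replicate set given by the shape of the point and the mean of each group by a line. For each of the 5 genes the 3 DAF libraries sit above the 3 DAF-mut9 libraries, as the choice of the genes requires, whereas FLI1 was 37 CPM with DAF and 36.3 CPM with DAF-mut9.

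NR0B1 (ENSG00000169297, chrX:30322323-30327507, minus strand), the nuclear receptor gene, was at 60.1, 53.0 and 44.3 CPM in the iLuc libraries of sets 1, 2 and 3, and at 10.9, 23.2 and 14.9 CPM in iEF. It was at 19.9, 38.0 and 24.1 CPM with DAF against 5.50, 7.11 and 10.4 CPM with DAF-mut9. Every DAF library was thus above every DAF-mut9 library, and every DAF-mut9 library was below every iEF library, the set 3 library of DAF-mut9 by the smallest margin. WT-EF gave 25.6, 29.2 and 30.6 CPM, mut9 56.6, 41.7 and 41.1 CPM, and Δ22 6.64, 12.1 and 5.28 CPM. By mean level the groups ran iLuc, mut9, WT-EF, DAF, iEF, Δ22 and DAF-mut9. Of the neighbours in that order only mut9 and WT-EF had ranges that did not overlap, so NR0B1 is the gene for which mut9 and WT-EF lay farthest apart (log2 difference, mut9 minus WT-EF, 0.73 ± 0.26). The level with DAF was 3.47-fold that with DAF-mut9 (log2 difference 1.79 ± 0.28), but only 1.68-fold that of iEF (0.74 ± 0.27).

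FCGRT (ENSG00000104870, chr19:50010073-50029685, plus strand), the Fc receptor gene, had the highest level per length in iLuc. It was at 113.1, 118.6 and 99.1 CPM there and at 6.60, 9.98 and 7.19 CPM in iEF. DAF gave 32.4, 37.5 and 39.2 CPM and DAF-mut9 9.78, 10.6 and 10.5 CPM. The DAF-mut9 and Δ22 libraries (10.3, 11.5 and 10.9 CPM) lay within about the same narrow range, just above or at the top of the iEF range. WT-EF gave 38.2, 43.2 and 57.6 CPM and mut9 55.1, 89.1 and 45.6 CPM. The order was iLuc, mut9, WT-EF, DAF, Δ22, DAF-mut9 and iEF, with breaks between iLuc and mut9 and between DAF and Δ22, and overlapping ranges at the other steps. DAF was below WT-EF in 3 of 3 sets (log2 difference, DAF minus WT-EF, -0.35 ± 0.17) and was 3.53-fold above DAF-mut9 (1.82 ± 0.18), with the smallest spread over the sets of the 5 genes (SD of the 3 log2 differences 0.09).

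TNNT1 (ENSG00000105048, chr19:55644066-55660574, minus strand), the slow muscle troponin T gene, was the only one of the 5 with its highest mean level in the DAF group. DAF gave 20.4, 50.3 and 33.3 CPM, against 30.3, 31.3 and 24.0 CPM in iLuc. These ranges overlapped, and the set 1 DAF library was below all 3 iLuc libraries. DAF-mut9 gave 4.31, 5.60 and 6.67 CPM, Δ22 2.93, 5.80 and 7.78 CPM, and iEF 2.33, 3.54 and 1.89 CPM. WT-EF gave 6.61, 9.46 and 15.1 CPM and mut9 5.90, 11.9 and 12.2 CPM, so all DAF libraries stood above all those of the 2 forms that keep repeat tyrosines in the first part of EWS. The level with DAF was 3.30-fold that with WT-EF (log2 difference 1.72 ± 0.27) and 6.07-fold that with DAF-mut9 (2.60 ± 0.29), the highest ratio of DAF to DAF-mut9 of the 5. DAF-mut9 was below mut9 in 3 of 3 sets (DAF-mut9 minus mut9, -0.81 ± 0.28), although the ranges of the groups overlapped.

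SLC15A2 (ENSG00000163406, chr3:121613248-121663035, plus strand), the peptide transporter gene, was at 16.2, 13.4 and 18.8 CPM in iLuc and at 0.63, 0.94 and 1.08 CPM in iEF. DAF gave 11.9, 8.59 and 9.19 CPM and DAF-mut9 2.21, 3.18 and 2.29 CPM. The DAF libraries were all below the iLuc libraries and all above the DAF-mut9 libraries, which in turn were all above iEF. WT-EF gave 19.5, 20.2 and 23.6 CPM and mut9 17.0, 33.6 and 12.2 CPM, with the set 2 library of mut9 standing highest of all 21. Δ22 gave 1.43, 2.15 and 3.11 CPM, overlapping DAF-mut9. The level with DAF was 3.93-fold that with DAF-mut9 (log2 difference 1.98 ± 0.30), 11.4-fold that of iEF (3.52 ± 0.34), and lower than with WT-EF by a log2 difference of -1.07 ± 0.28.

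APELA (ENSG00000248329, chr4:165798330-165820117, plus strand), the apelin receptor ligand gene, was close to silent after depletion. It was at 31.0, 28.8 and 20.4 CPM in iLuc and at 0.37, 0.94 and 0.41 CPM in iEF, where the lowest library held 15 counts. DAF gave 3.74, 6.75 and 6.44 CPM and DAF-mut9 0.92, 1.26 and 0.89 CPM. DAF thus stood between the DAF-mut9 libraries and the WT-EF libraries (10.6, 18.6 and 19.5 CPM), overlapping neither. Δ22 gave 0.41, 0.96 and 0.45 CPM, a range that nearly coincided with that of iEF. mut9 gave 13.7, 37.2 and 11.9 CPM, again with set 2 the highest library of all. The level with DAF was 5.48-fold that with DAF-mut9 (log2 difference 2.45 ± 0.32), 10.2-fold that of iEF (3.36 ± 0.35) and below WT-EF by a log2 difference of -1.54 ± 0.28, the widest gap between DAF and WT-EF in that direction.

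The values that chose the genes are given without a test. For scale, 0.665% of all tested genes were called higher and 0.282% lower with DAF than with DAF-mut9 (adjusted p under 0.05), and 6.15% were called different between mut9 and WT-EF. Of the 203 genes called higher with DAF, 144 were not called different between mut9 and WT-EF, and among these, ordered by the log2 difference of DAF and DAF-mut9, TNNT1 ranked 18, APELA 23, SLC15A2 37, FCGRT 41 and NR0B1 44. The 5 genes are therefore not the extreme of the pattern.

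**Figure D3:**
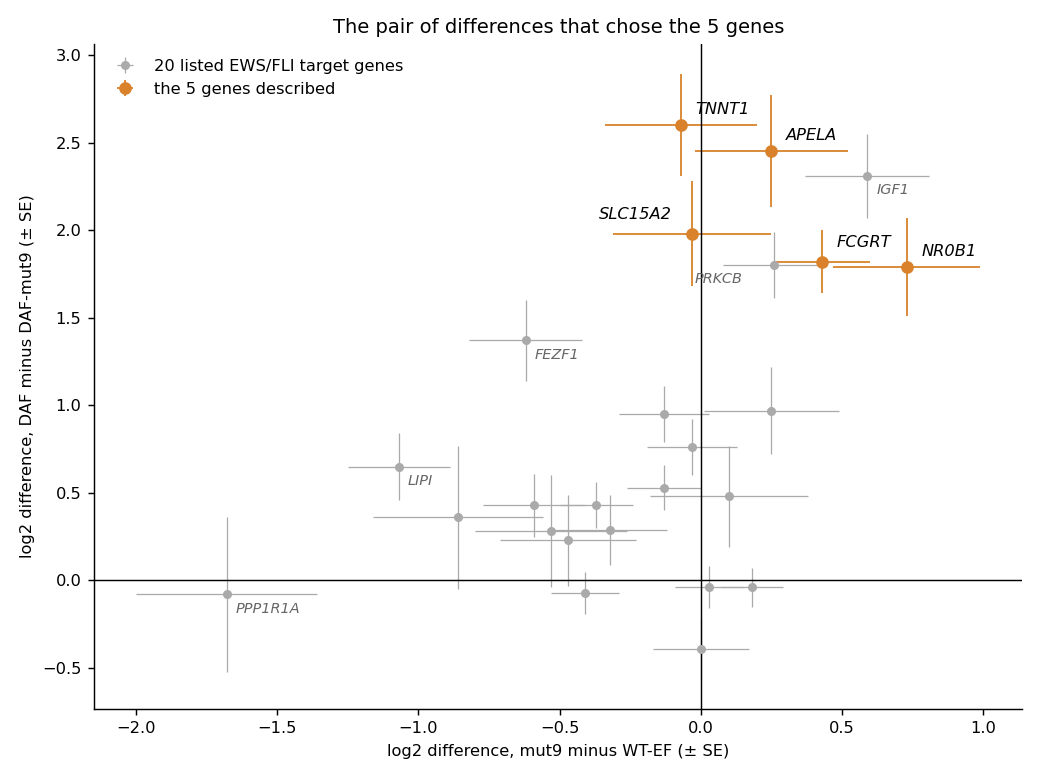
Log2 difference of mut9 minus WT-EF (horizontal) and of DAF minus DAF-mut9 (vertical), each ± SE from the fit, for the 5 genes and for 20 listed EWS/FLI target genes. The 5 genes lie between 1.79 and 2.60 on the vertical axis and between -0.07 and 0.73 on the horizontal axis; of the listed genes IGF1 and PRKCB lie nearest to them.

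The rule that chose the genes did not use the comparison of endo-EF with depleted cells. That comparison asks whether the genes depend on the fusion that drives the cell line. All 5 were higher in iLuc than in iEF, in every replicate set, where 18.7% of all tested genes were called higher. The log2 differences were 1.73 ± 0.27 for NR0B1 (edgeR adjusted p = 2.32e-05), 3.82 ± 0.19 for FCGRT (adjusted p = 2.78e-12), 3.51 ± 0.30 for TNNT1 (adjusted p = 6.63e-09), 4.21 ± 0.34 for SLC15A2 (adjusted p = 3.05e-09) and 5.66 ± 0.35 for APELA (adjusted p = 6.08e-11). The median of the 5 was 3.82, beside 0.01 over all tested genes. NR0B1 had the smallest ratio, 3.33-fold over an iEF level of 16.4 ± 6.26 CPM, and APELA the largest, 50.5-fold over 0.572 ± 0.317 CPM.

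WT-EF and mut9 also raised all 5 genes over iEF, where 11.4% and 6.22% of all tested genes were called higher. These comparisons share the WT-EF and mut9 libraries with the contrast used to choose the genes, so they are not wholly independent of it. For WT-EF the log2 differences were 0.84 ± 0.27 for NR0B1 (edgeR adjusted p = 0.0214), 2.57 ± 0.19 for FCGRT (adjusted p = 2.63e-09), 1.96 ± 0.29 for TNNT1 (adjusted p = 2.90e-05), 4.59 ± 0.35 for SLC15A2 (adjusted p = 4.52e-09) and 4.89 ± 0.35 for APELA (adjusted p = 2.23e-09). The call of NR0B1 was lost when any of 4 libraries was left out (iEF of set 1 or 3, WT-EF of set 1 or 3), with log2 differences of 0.66 to 0.86 and adjusted p from 0.05 to 0.118. For mut9 they were 1.57 ± 0.27 for NR0B1 (edgeR adjusted p = 0.000321), 2.99 ± 0.19 for FCGRT (adjusted p = 9.32e-10), 1.89 ± 0.29 for TNNT1 (adjusted p = 0.000106), 4.56 ± 0.35 for SLC15A2 (adjusted p = 1.43e-08) and 5.14 ± 0.35 for APELA (adjusted p = 2.54e-09), and each of these 5 calls was kept when any 1 of the iEF or mut9 libraries was left out.

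With Δ22, which lacks the EWS domain, the differences from iEF lay between -1.03 and 1.34. They left FCGRT (log2 difference 0.48 ± 0.18, edgeR adjusted p = 0.205), TNNT1 (1.02 ± 0.29, adjusted p = 0.072) and APELA (0.12 ± 0.41, adjusted p = 0.946) short of the threshold. SLC15A2 was called higher (1.34 ± 0.35, edgeR adjusted p = 0.0438; 0.881% of all tested genes were called higher) and NR0B1 lower (-1.03 ± 0.27, adjusted p = 0.0473; 1.79% were called lower). Both of these calls rested on single libraries: that of SLC15A2 was lost without any 1 of the iEF libraries or without the Δ22 library of set 2 or 3 (adjusted p = 0.0815 to 0.303), and that of NR0B1 without the iEF library of set 2 or 3 or the Δ22 library of set 1 or 3 (adjusted p = 0.143 to 0.286). With no replicate block in the model neither was called (adjusted p = 0.0502 for SLC15A2 and 0.0914 for NR0B1). DAF-mut9, given without a test, had log2 differences from iEF of -1.05 ± 0.27 for NR0B1, 0.39 ± 0.18 for FCGRT, 1.08 ± 0.29 for TNNT1, 1.54 ± 0.35 for SLC15A2 and 0.90 ± 0.38 for APELA. From Δ22 it was -0.02 ± 0.28, -0.08 ± 0.18, 0.05 ± 0.28, 0.20 ± 0.32 and 0.78 ± 0.38 in the same order, so that for 4 of the 5 genes DAF-mut9 and Δ22 differed by no more than the SE.

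**Figure D4:**
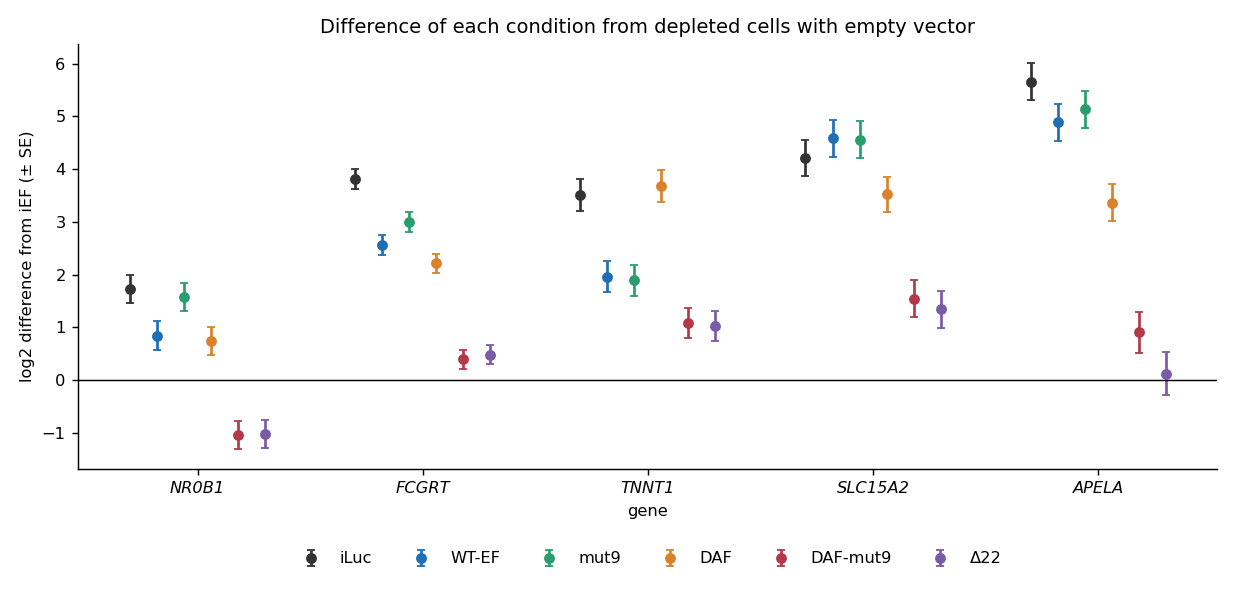
Log2 difference of each condition from iEF, ± SE of the fit (n = 3 libraries per group), for the 5 genes. iLuc, WT-EF and mut9 are above 0 for every gene and reach 5.66 for APELA; DAF lies between 0.74 and 3.68, and DAF-mut9 and Δ22 lie between -1.05 and 1.54.

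The comparison of WT-EF with iLuc asks how far the full-length cDNA restored the level set by endo-EF. It too shares the WT-EF libraries with the contrast used to choose the genes, so it is not wholly independent of that choice. WT-EF was below iLuc for NR0B1 (log2 difference -0.89 ± 0.26, edgeR adjusted p = 0.0211), FCGRT (-1.25 ± 0.17, adjusted p = 2.35e-05) and TNNT1 (-1.55 ± 0.27, adjusted p = 0.00033), where 8.52% of all tested genes were called lower. The NR0B1 call was lost without the iLuc library of set 1 or the WT-EF library of set 1 or 2 (adjusted p = 0.0839 to 0.178). APELA had a log2 difference of -0.77 ± 0.27 (edgeR adjusted p = 0.053) and was called lower by DESeq2 (adjusted p = 0.0424). SLC15A2 was higher with WT-EF in 3 of 3 sets, without passing the test (0.38 ± 0.28, edgeR adjusted p = 0.404).

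Placed on a linear scale between iEF (0%) and iLuc (100%) within each replicate set, DAF reached 33.0% ± 15.7 (SD, n = 3) for NR0B1, 28.1% ± 5.81 for FCGRT, 125% ± 54.1 for TNNT1, 59.8% ± 13.2 for SLC15A2 and 20.7% ± 9.57 for APELA. WT-EF reached 34.4% ± 17.1, 38.3% ± 14.3, 32.1% ± 24.0, 134% ± 17.9 and 64.1% ± 31.0 in the same order. Set by set, DAF was below WT-EF in 3 of 3 sets for FCGRT, SLC15A2 and APELA, above it in 3 of 3 for TNNT1, and above it in 1 of 3 for NR0B1. DAF-mut9 stood at -26.9% ± 23.6 for NR0B1 and between 1.80% and 12% for the other 4 genes, and Δ22 at -26.3% ± 15.3 for NR0B1 and between 0.152% and 12.3% for the others. With mut9, SLC15A2 stood at 105%, 263% and 63.0% in sets 1, 2 and 3 and APELA at 43.5%, 130% and 57.5%, the widest spread of any construct for these 2 genes.

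**Figure D5:**
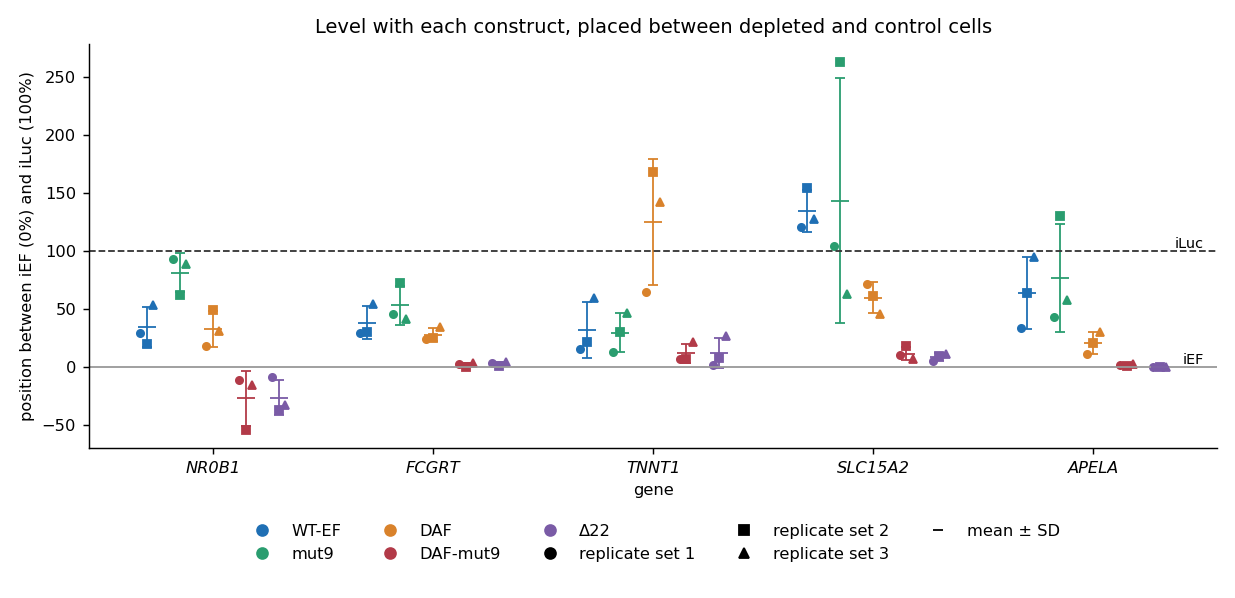
Level of the 5 genes with each construct, as a percentage of the way from iEF (0%) to iLuc (100%) in the same replicate set; points are the 3 sets and bars the mean ± SD. TNNT1 is the gene for which DAF stands highest (125%), and DAF-mut9 and Δ22 have means between 0.152% and 12.3% except for NR0B1, where both lie below 0%.

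Levels of different genes can be compared per length of exon. In iLuc they were 27.2 ± 2.48 CPM per kb for FCGRT, 26.3 ± 3.96 for NR0B1, 13.5 ± 1.88 for TNNT1, 9.16 ± 1.90 for APELA and 2.69 ± 0.451 for SLC15A2. With DAF, TNNT1 (16.4 ± 7.08 CPM per kb) and NR0B1 (13.7 ± 4.74) stood at the top, and APELA (1.93 ± 0.568) and SLC15A2 (1.65 ± 0.292) at the bottom. With DAF-mut9 the 5 genes lay between 0.352 and 3.84 CPM per kb. None of the 5 shares exon bases with another annotated gene.

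The likeness of the 5 genes over the libraries is given as a description, since 12 of the 21 libraries, those of DAF, DAF-mut9, mut9 and WT-EF, were used to choose them for a shared pattern. Pearson's r of log2 CPM over the 21 libraries, which also share groups, replicate sets and depth, was highest for FCGRT and APELA (0.974) and for SLC15A2 and APELA (0.944), and lowest for NR0B1 and TNNT1 (0.621). For TNNT1 with the other 4 genes it ran from 0.621 to 0.789. The genes most like each were, by the same measure, SLC19A3, SPATA13 and DELEC1 for NR0B1 (r = 0.933 to 0.914), PRKCB, STEAP2 and CES1 for FCGRT (0.978 to 0.971), ADGRG7, RASIP1 and CAP2 for TNNT1 (0.893 to 0.861), CES1, TRHDE and EXOC6B for SLC15A2 (0.965 to 0.959), and DNAJC12, ZMAT4 and SLC18B1 for APELA (0.982 to 0.975). Most like the mean of the 5 was CES1, a carboxylesterase gene (r = 0.977), at 235.4 CPM in iLuc, 13.0 in iEF, 149.6 in WT-EF, 144.9 in mut9, 102.1 in DAF, 30.0 in DAF-mut9 and 25.6 in Δ22. STEAP2, a metalloreductase gene, and CES1 had GGAA runs of 17 and 10 units in the window used above, and ADGRG7 one of 9 units. SLC19A3, SPATA13, DELEC1, PRKCB, RASIP1, CAP2, TRHDE, EXOC6B, DNAJC12, ZMAT4 and SLC18B1 had none.

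A list of 20 EWS/FLI target genes known from the literature, several of them linked to microsatellites, was tested in the same fit. Of these 20, 19 were called higher over iEF in iLuc, 20 in WT-EF, 20 in mut9, 11 in DAF, 2 in DAF-mut9 and 0 in Δ22 (edgeR, adjusted p under 0.05; beside the shares given above, 3.41% of all tested genes were called higher with DAF and 1.26% with DAF-mut9). FEZF1 was the 1 gene called lower with DAF-mut9 and with Δ22, where 2.14% and 1.79% of all genes were. The median log2 difference of the list from iEF was 0.80 with DAF and 0.13 with DAF-mut9, beside -0.03 and -0.02 over all tested genes. Directly between DAF and DAF-mut9, 5 were called higher with DAF and 0 lower, beside 0.665% and 0.282% of all tested genes. The listed genes called were IGF1, a growth factor gene (log2 difference 2.31 ± 0.24, edgeR adjusted p = 1.77e-05), PRKCB, a protein kinase C gene (1.80 ± 0.19, adjusted p = 1.77e-05), FEZF1, a transcription factor gene (1.37 ± 0.23, adjusted p = 0.00259), STEAP1, a cell-surface antigen gene (0.95 ± 0.16, adjusted p = 0.00312), and KDSR, an enzyme gene of sphingolipid synthesis (0.76 ± 0.16, adjusted p = 0.0218). IGF1 was thus close to the 5 genes in size, at 24.7 ± 2.93 CPM with DAF, 5.00 ± 1.45 with DAF-mut9 and 4.49 ± 1.93 in iEF. IGF1, PRKCB, FEZF1, STEAP1 and KDSR had no GGAA run of 4 or more units in the window used above. The listed genes with such a run, GSTM4 (10 units), CAV1 (16) and LIPI (11), were not called between DAF and DAF-mut9. Their log2 differences were 0.97 ± 0.25, 0.43 ± 0.13 and 0.65 ± 0.19 (edgeR adjusted p = 0.0724, 0.17 and 0.135). Between mut9 and WT-EF, 3 of the 20 were called lower with mut9, VRK1, PPP1R1A and LIPI, where 1.20% of all tested genes were lower and 4.95% higher, and none was called higher.

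Relatives and partners of the 5 gene products did not follow them as a group. Of 24 listed, 22 were tested. Over iEF, 4 were called higher and 12 lower in iLuc, beside 18.7% and 22.4% of all tested genes. With WT-EF 3 were higher and 7 lower (11.4% and 16.9% of all), and with mut9 3 and 3 (6.22% and 8.33%). With DAF 4 were higher, where 3.41% of all were, and 0 lower. With DAF-mut9 2 were higher and 1 lower (1.26% and 2.14%), and with Δ22 2 and 1 (0.881% and 1.79%). Several listed genes were near the floor. Among them TNNT3 and TNNI2 were called lower in iLuc at 0 CPM, against 0.179 and 0.0886 CPM in iEF. Between DAF and DAF-mut9 only TNNI3, the cardiac troponin I gene, was called, at 0.880 ± 0.125 CPM with DAF and 0.304 ± 0.0716 CPM with DAF-mut9 (log2 difference 1.50 ± 0.34, edgeR adjusted p = 0.0307). TNNI3 was also higher in iLuc, at 5.35 ± 1.15 CPM against 0.215 ± 0.106 CPM in iEF (4.68 ± 0.33, adjusted p = 3.91e-10).

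B2M, whose product is the light chain of the Fc receptor, was lower in iLuc than in iEF (log2 difference -1.21 ± 0.16, edgeR adjusted p = 2.11e-06) and with WT-EF (-0.50 ± 0.15, adjusted p = 0.0201), where FCGRT was higher. Over iEF it did not pass the test with mut9 (-0.04 ± 0.15, edgeR adjusted p = 0.913) or DAF (0.06 ± 0.15, adjusted p = 0.897). SLC15A4, a lysosomal relative of SLC15A2, was likewise lower in iLuc (-2.41 ± 0.18, edgeR adjusted p = 6.61e-10) and with WT-EF (-1.57 ± 0.17, adjusted p = 5.39e-07). APLNR, the receptor of the APELA peptide, was at 0.0476 ± 0.0209 CPM in iLuc, 0.342 ± 0.171 in iEF, 3.14 ± 0.529 in WT-EF, 2.12 ± 0.626 in mut9, 0.687 ± 0.0337 in DAF, 0.493 ± 0.114 in DAF-mut9 and 0.647 ± 0.265 in Δ22. It was called higher over iEF with WT-EF (3.12 ± 0.35, edgeR adjusted p = 6.51e-07) and mut9 (2.55 ± 0.35, adjusted p = 2.48e-05), as APELA was. In iLuc APLNR was called lower than in iEF (-2.81 ± 0.55, edgeR adjusted p = 0.000304), where APELA was higher. That APLNR level in iLuc was near the floor, at a few counts per library. NR5A1, a partner of NR0B1, and NR0B2, its nearest relative, had too few counts to be tested.

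The genes that lie next to the 5 were examined after the values of the 5 were known. Of the nearest tested protein-coding genes on each side, 10 in all, 4 were called higher and 3 lower in iLuc than in iEF. The shares of all tested genes were 18.7% and 22.4%. Among these calls SMIM31 (higher, 0.0549 CPM in iLuc against 0 CPM in iEF) and MAGEB3 (lower, 0 against 0.16 CPM) were near the floor. Only TNNI3, whose nearest end lies 2.6 kb from TNNT1, was called between DAF and DAF-mut9. RCN3, 1.6 kb from FCGRT, was at 98.4 CPM with DAF and 55.2 CPM with DAF-mut9 (log2 difference 0.85 ± 0.21, edgeR adjusted p = 0.0621), but in contrast to FCGRT it was lower in iLuc than in iEF (-0.81 ± 0.21, adjusted p = 0.0043).

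The 144 genes with the same pattern as the 5 were counted for their response to the endogenous fusion and for GGAA runs, neither of which defined them. The WT-EF and mut9 libraries entered that definition through the contrast between them. In iLuc over iEF 117 were called higher and 11 lower, beside 18.7% and 22.4% of all tested genes. In WT-EF over iEF 113 were higher and 6 lower (11.4% and 16.9% of all), and in mut9 over iEF 120 and 3 (6.22% and 8.33% of all). A run of at least 10 GGAA units lay in the window of 17 of the 142 with an annotated start (12%), and of 14 of 137 (10.2%) when the 5 genes were left out. The same share was 0.67% of 29538 tested genes, 1.51% of 5572 genes higher in iLuc than in iEF, and 3.39% of 1858 genes higher with mut9 than with iEF. For runs of at least 4 units the shares were 14.8%, 2.24%, 3.41% and 5.81% in the same order. These shares describe the sets and were not tested.

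The promoters were searched for 2 short motifs only. In the RefSeq promoters of GRCh38, each 300 bases long (35116 in all, among them those of the 5 genes), neither CCGGAAGT, a high-affinity ETS site, nor GGAAGGAA, a pair of GGAA units, was found on either strand in any of the 5. All promoters held CCGGAAGT in 4.14% and GGAAGGAA in 3.67%; the motifs overlap in their GGAA core. Other forms of the ETS site were not searched, and at these shares 0 of 5 says nothing about the 5 genes. Promoters of 300 bases also do not reach the GGAA runs of NR0B1, FCGRT and APELA at -1390, -1130 and -3804. The search could therefore not have found those runs.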

How the data were processed

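RNA-seq libraries of A673 cells, 21 in 7 groups of 3, were grouped by their labels. The authors aligned 150-bp paired reads to hg19 with STAR (2.5.1b in the processing notes) and deposited raw counts per Ensembl gene, made by htseq-count (intersection-strict). Its annotation and strand setting are not given in the sources used here. They also deposited ComBat-adjusted counts, a signal not scaled for library size that was used here only as an alternative, and a table of their own DESeq2 log2 fold changes, errors and adjusted p-values, which was not used. The share of unassigned reads is unknown, as the table's 5 summary lines were empty.

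Raw counts were fitted with edgeR 4.0.16 under R 4.3.3. Genes averaging at least 1 count per library, 30549 of 57820, were tested. TMM normalization was used, and 1 quasi-likelihood model of group and set covered all 21 libraries, with Benjamini-Hochberg adjustment over all tested genes and a threshold of 0.05. Standard errors were derived from the quasi-likelihood F statistic, as the absolute log2 difference over the square root of F, and are approximate. Levels are CPM on TMM-adjusted library sizes, where 1 CPM stood for about 32.0 to 45.2 counts, and correlations used log2 CPM with a prior count of 2. The replicate set was in the model because the study repeated the whole KD/rescue experiment 3 times and adjusted each set of replicates for batch. Over 63 pairs of libraries with the same set number and different groups, the deviations from group means correlated with r from -0.126 to 0.541 (median 0.158), against a median of -0.0906 for other pairs. Replicate libraries differed by more than counting noise (chi-square per degree of freedom at least 13.5). The p-values measure the spread left after group and set were fitted, pooled over all 7 groups. Shifts common to a whole experiment were taken up by the set term.

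The 5 genes and the gene lists were chosen with earlier results of these data known. The genes were chosen on the DAF, DAF-mut9, mut9 and WT-EF libraries, so comparisons that involve DAF or DAF-mut9, and mut9 with WT-EF, carry no test for them. Named genes were the 5, FLI1, both lists, the markers, the 3 genes with the highest Pearson r to each of the 5 (mean of at least 1 CPM) and the genes next to the 5, added later. GGAA runs were searched on both strands of GRCh37, the build of the files, around starts from GENCODE release 44 lifted to it (29538 tested genes matched). The start was that of the transcript marked as canonical, or the outer start of the gene where none was marked. Alternatives were DESeq2 1.42.0, no replicate block, RLE normalization, other low-count filters, the ComBat values, only the compared groups, and each library left out. The scripts were tested on simulated counts.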

Additional observations from a re-analysis of the deposited data

How the results depend on the processing

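No tested difference of the 5 genes changed sign where it was called, and the calls of all 5 genes over iEF held in iLuc and in mut9 under every alternative. The calls that changed were those near the threshold. In Δ22 over iEF, members called higher went from 1 to 2 with DESeq2 and with no low-count filter (TNNT1 was added), to 0 with no replicate block and to 0 with the ComBat values, and ranged from 0 to 1 when single libraries were left out; members called lower went from 1 to 0 with no replicate block, filterByExpr and the ComBat values, and ranged from 0 to 1 without single libraries. The genes called in that comparison, 817, became 508 with no replicate block and 2144 with no low-count filter, and ranged from 185 (without the Δ22 library of set 3) to 919 without single libraries. For mut9 over iEF the 4445 genes called ranged from 2688 (without the mut9 library of set 2) to 4045. APELA was called lower in WT-EF than in iLuc with DESeq2, no low-count filter, filterByExpr and only the compared groups. The log2 difference of DAF and DAF-mut9 was 1.56 for FCGRT and 1.82 for APELA with the ComBat values, beyond 1 SD of the sets, and ranged over single libraries left out from 1.73 to 1.88 for FCGRT. Leaving the replicate block out changed no other call of the 5 genes. The reasons were not tested. With a window of 2000 bases upstream to 1000 downstream APELA had no GGAA run, and with 50000 bases on each side TNNT1 had one of 5 units.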
